A study of Homo sapiens with 12 samples.

Results

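The human mitochondrial genome holds 13 protein-coding genes, and 6 of them are described here. They are MT-CO1, MT-CO2 and MT-CO3, which encode the core subunits of cytochrome c oxidase (complex IV), MT-ATP6 and MT-ATP8, which encode membrane subunits of ATP synthase, and MT-CYB, which encodes the cytochrome b subunit of complex III. They were taken by their gene symbols among the 37 genes that the deposited count table places on the mitochondrial chromosome, out of 62475 gene identifiers in all, and all 6 passed the filter on low counts. The other 7 protein-coding genes, which encode complex I subunits, are used only for comparison. Each gene is called an mRNA below, although MT-ATP6 and MT-ATP8 share a single mRNA and are not independent of each other.

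The study sequenced RNA of HepG2, a human liver cancer cell line, in 12 libraries. Cells had either the wild-type form of HDAC1 (WT) or HDAC1_S434A (S434A), in which a serine of the histone deacetylase HDAC1 is replaced by alanine. Each genotype was sampled without and with the protein kinase A inhibitor H89, in 3 libraries per group that the submitters call biological replicates; libraries without and with H89 are called untreated and treated below. The sources used here do not say how the mutant cells were made, whether they are a clone, or how much H89 was given for how long.

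Mitochondrial DNA is transcribed from both strands into long precursors that span many genes. In most places a transfer RNA lies between neighbouring coding genes, and its excision releases the mRNAs, which are then polyadenylated and stabilised by RNA-binding proteins. Each of the 3 enzyme complexes joins products of the members to many subunits encoded in the nucleus. The members are therefore discussed below with the nuclear genes of the same complexes. In bulk RNA, fewer cells with a transcript and less of it per cell cannot be told apart, and the same holds for the number of mitochondrial genomes and the RNA made from each.

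MT-ATP8 and MT-ATP6 are read from a single mRNA, and their coding sequences overlap. In the deposited table MT-ATP8 lies at chrM:8366-8572 and MT-ATP6 at chrM:8527-9207, both on the plus strand, so 46 bases belong to both genes. These are 22.2% of MT-ATP8 and leave 161 bases that are its own. The sequences are shown because this overlap bears on how read pairs of MT-ATP8 can be counted. They come from the GENCODE transcripts of build GRCh38, where all 6 members have the same positions as in the deposited hg19 table. MT-ATP8 is printed whole and MT-ATP6 by its first 76 bases, with the shared bases in capitals.
MT-ATP8: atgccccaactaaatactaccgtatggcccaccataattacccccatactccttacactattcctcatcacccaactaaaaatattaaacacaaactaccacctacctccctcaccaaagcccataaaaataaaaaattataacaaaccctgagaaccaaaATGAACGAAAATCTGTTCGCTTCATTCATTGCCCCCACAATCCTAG
MT-ATP6: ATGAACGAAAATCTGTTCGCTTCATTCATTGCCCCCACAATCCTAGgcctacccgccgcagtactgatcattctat

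MT-CO3 starts where MT-ATP6 ends, at chrM:9207-9990, with 1 shared base and no transfer RNA between them. MT-CO2 lies upstream at chrM:7586-8269, MT-CO1 at chrM:5904-7445 and MT-CYB at chrM:14747-15887, all on the plus strand. MT-CO3 and MT-CYB end in a single T of an incomplete stop codon, which the poly(A) tail completes in the mature mRNA. Their last 30 bases are shown for this reason, with the T in capitals.
MT-CO3: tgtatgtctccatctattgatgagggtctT
MT-CYB: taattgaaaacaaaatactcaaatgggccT

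The libraries held 17562754 to 37187794 counts, and 14435 genes were tested. Depth followed the groups, at 27763604 to 37187794 counts in untreated WT and 17562754 to 22648485 in the other 9 libraries. HDAC1 was present at 552 to 752 CPM (counts scaled to equal library size with TMM factors) in every library, and counts per gene cannot show the serine change. The TMM factors were 0.831996 to 0.845325 in untreated WT and 1.00348 to 1.09633 in the other 9 libraries. Depth and TMM factor thus set untreated WT apart too, and the part of depth in the results was not tested. All 10 hepatocyte markers listed, ALB and HNF4A among them, were present, with summed levels of 74055 to 74755 CPM in untreated WT, 43224 to 47873 in treated WT, 35569 to 56080 in untreated S434A and 43883 to 44716 in treated S434A. Of 5 blood markers PTPRC, CD3E and HBB were at 0 in all libraries, and LYZ made up nearly all of the sum (4330 to 4457 CPM in untreated WT and 1849 to 2871 CPM elsewhere). The endothelial, fibroblast and stellate lists summed to at most 41.1 CPM, with COL1A2 and DCN at 0. PDGFRB (17.7 to 39.6 CPM) made up nearly all of the fibroblast sum, and ACTA2 (17.9 to 40.0 CPM) nearly all of the stellate sum. The fibroblast sum was 24.4 to 39.7 CPM in untreated S434A and 17.7 to 21.0 elsewhere. The stellate sum was 18.6 to 20.8 CPM in untreated WT and 27.7 to 41.1 elsewhere. The hepatocyte, LYZ and stellate levels thus set untreated WT apart as the members do. The part of the marker levels in the results was not tested. Spearman's rho between a gene's GC content and its deviation from its mean over the libraries was taken for each library. It was 0.81, 0.73 and 0.15 in replicates 1, 2 and 3 of untreated S434A, and -0.44 to -0.06 in the other 9 libraries. The same rho with gene length followed the groups. It was -0.44 to -0.43 in untreated WT, -0.18 to -0.08 in untreated S434A and 0.45 to 0.48 in the H89 libraries of both genotypes. The members have 39.6% to 46.6% GC and 207 to 1542 bases, while the median of the genes tested was 49.0% and 4734 bases. Results are therefore also given without replicate 1 of untreated S434A, which leaves replicate 2 in. They are also given after removing, in every library, the trends of the counts with GC content and length (below, trends removed).

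In untreated WT cells the members held 1.15%, 1.15% and 1.16% of all counts. They held 3.39%, 4.20% and 3.84% in treated WT, 4.98%, 3.07% and 2.37% in untreated S434A, and 4.0%, 3.8% and 3.99% in treated S434A. The untreated WT libraries were the lowest 3 of the 12, and the widest spread was in untreated S434A, where replicate 1 was the highest of all libraries. MT-CO1 alone gave 139360 to 490623 counts per library, and MT-ATP8, the scarcest member, gave 551 to 3546.

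Divided by gene length, MT-CO2 was the most abundant member in untreated WT, at 4977 ± 51.6 CPM per kilobase (mean ± SD, n = 3). MT-CO1 followed at 3917 ± 20.3 CPM per kilobase and MT-CO3 at 3740 ± 83.2. The level per length was 1061 ± 20.2 for MT-ATP6, 588 ± 4.45 for MT-CYB and 117 ± 3.48 for MT-ATP8. No neighbours in this order overlapped in their 3 libraries. The order thus ran through the complex IV subunits, then ATP6 and CYB, with ATP8 last.

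In the other groups MT-CO1 took the highest mean level per length, at 10969 ± 1560 CPM per kilobase in treated WT, 11175 ± 5300 in untreated S434A and 10747 ± 280 in treated S434A (n = 3 each). MT-CO2 stood next to it at 9995 ± 555, 10175 ± 2780 and 10036 ± 212 CPM per kilobase in the same order of groups. MT-CO1 and MT-CO2 overlapped in treated WT and in untreated S434A, and did not overlap in treated S434A. In untreated S434A the only neighbours in the order that did not overlap were MT-CYB and MT-ATP8.

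The bicistronic pair gave unequal values. The level per length of MT-ATP8 was 0.109 to 0.112 of that of MT-ATP6 in untreated WT, 0.141 to 0.159 in treated WT, 0.131 to 0.140 in untreated S434A and 0.140 to 0.153 in treated S434A. The untreated WT libraries lay below the other 9. The 2 genes share an mRNA, and the counting options in the table's header set no rule for read pairs that overlap both (by the tool's default such pairs are not assigned), so these ratios describe counts assigned to each gene and not separate transcripts.

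**Figure D1:**
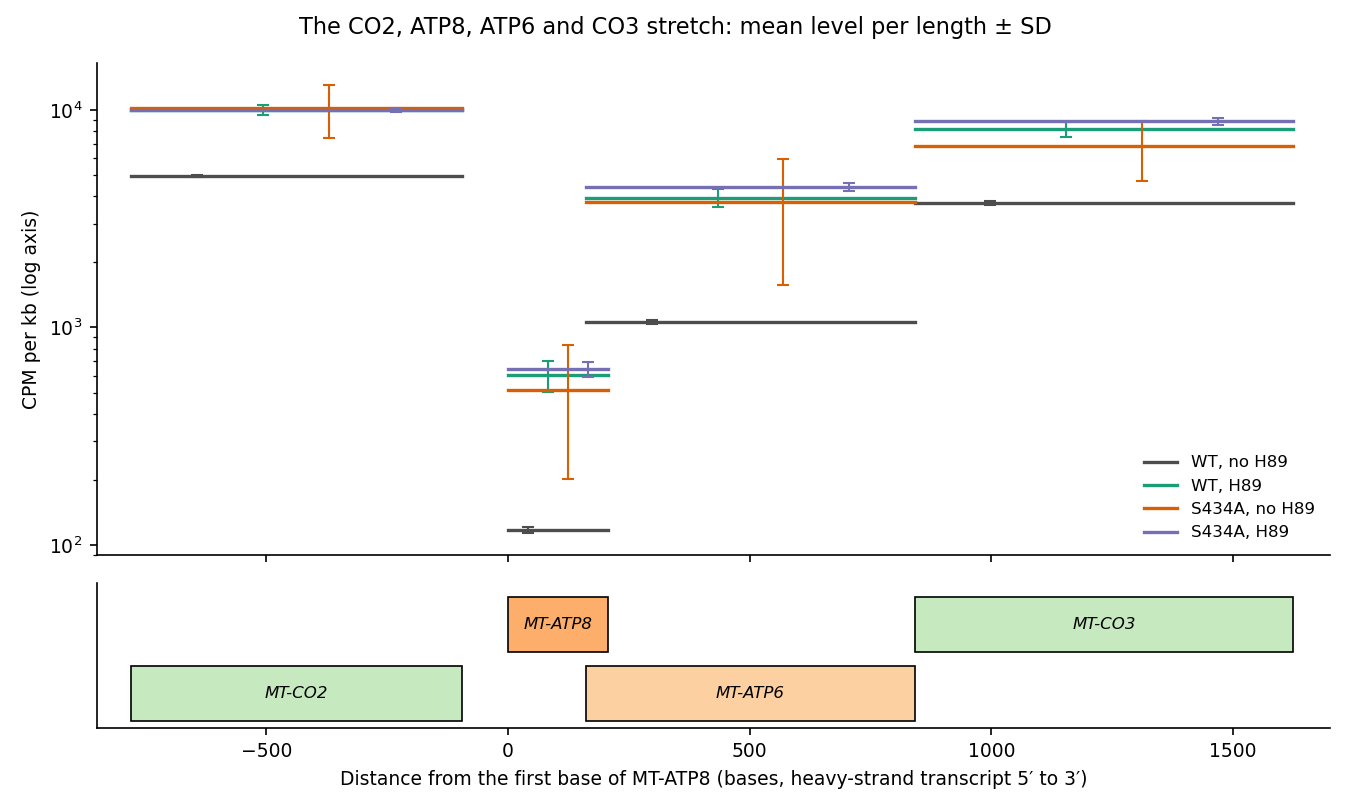
Mean level per length (CPM per kilobase, log axis; bars are the SD over 3 libraries) of the 4 neighbouring genes MT-CO2, MT-ATP8, MT-ATP6 and MT-CO3 against the distance in bases from the first base of MT-ATP8, in the 4 groups. MT-ATP8 sits lowest in every group, and the untreated WT libraries sit lowest for each gene (117 CPM per kilobase for MT-ATP8, 4977 for MT-CO2).

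The first comparison asked what S434A does to these mRNAs without H89. All 6 members were higher in S434A than in WT, by 1.82-fold for MT-CO3 up to 4.41-fold for MT-ATP8, and in none of them did the 2 groups overlap; against the summed counts of the 13 mitochondrially encoded mRNAs, however, MT-CO2 and MT-CO3 were lower in S434A. With the thresholds of the series design (over 2-fold, adjusted p under 0.05 in edgeR's quasi-likelihood test), 5 of the 6 were called higher, where 11.6% of all genes tested were. At any fold 6 of 6 passed, where 29.0% of genes were higher, and groups without overlap with S434A higher were found for 29.0% of genes. The median log2 difference of the members was 1.49, and that of all genes tested was -0.04.

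Of the complex IV mRNAs, MT-CO1, which encodes the catalytic subunit with the heme and copper centre, was at 6072, 6037 and 6009 CPM in WT and at 26400, 14581 and 10715 CPM in S434A. The lowest S434A library was 1.76-fold above the highest WT library. The log2 difference was 1.51 (SE 0.26, adjusted p = 0.000507 in edgeR's quasi-likelihood test). MT-CO2, which encodes the subunit that takes electrons from cytochrome c, was at 3442, 3372 and 3398 CPM in WT and at 8987, 6678 and 5214 CPM in S434A. Its log2 difference of 1.03 (SE 0.15, edgeR adjusted p = 0.000142) lies close to the 2-fold threshold. MT-CO3, the remaining core subunit, was at 2858, 2982 and 2956 CPM in WT and at 7188, 4809 and 4015 CPM in S434A, a log2 difference of 0.86 (SE 0.17, edgeR adjusted p = 0.00113). It is the member that passed the test below 2-fold.

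Both ATP synthase genes, which share a single mRNA, differed more. MT-ATP6, which encodes the subunit of the proton channel, was at 708, 724 and 735 CPM in WT and at 4237, 2063 and 1387 CPM in S434A, a log2 difference of 1.83 (SE 0.31, edgeR adjusted p = 0.000497). MT-ATP8, a small subunit of the membrane part, was at 23.8, 23.9 and 25.1 CPM in WT and at 180, 85.6 and 55.3 CPM in S434A. Its log2 difference of 2.14 (SE 0.34, edgeR adjusted p = 0.000323) was the largest of the 6. MT-CYB, whose protein holds the quinone sites of complex III, was at 676, 671 and 666 CPM in WT and at 2714, 1611 and 1205 CPM in S434A, a log2 difference of 1.46 (SE 0.23, edgeR adjusted p = 0.000269).

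For all 6 members replicate 1 was the highest and replicate 3 the lowest S434A library. The highest was 1.72-fold (MT-CO2) to 3.26-fold (MT-ATP8) above the lowest, while the WT libraries differed by 1.01-fold to 1.05-fold. Over all genes tested, chi-square per degree of freedom between 2 libraries of a group was 1.62 to 2.03 in untreated WT. It was 32.5 to 156 in untreated S434A, 5.78 to 9.07 in treated WT and 3.85 to 4.99 in treated S434A. Counting noise alone gives about 1, so the untreated WT libraries differed little beyond it. The fit shares 1 spread between groups, and in limma-voom with a weight per group all 6 passed as well. Without replicate 1 all 6 still passed, with log2 differences of 1.07 for MT-CO1, 0.80 for MT-CO2, 0.59 for MT-CO3, 1.26 for MT-ATP6, 1.54 for MT-ATP8 and 1.07 for MT-CYB. MT-CO2 then fell below 2-fold, leaving 4 called members, and the fold for MT-ATP8 went from 4.41 to 2.90. With the trends removed the log2 differences ranged from 1.61 (MT-CO3) to 2.79 (MT-ATP6), and all 6 were over 2-fold, where 5.06% of genes were called higher over 2-fold and 29.7% at any fold.

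**Figure D2:**
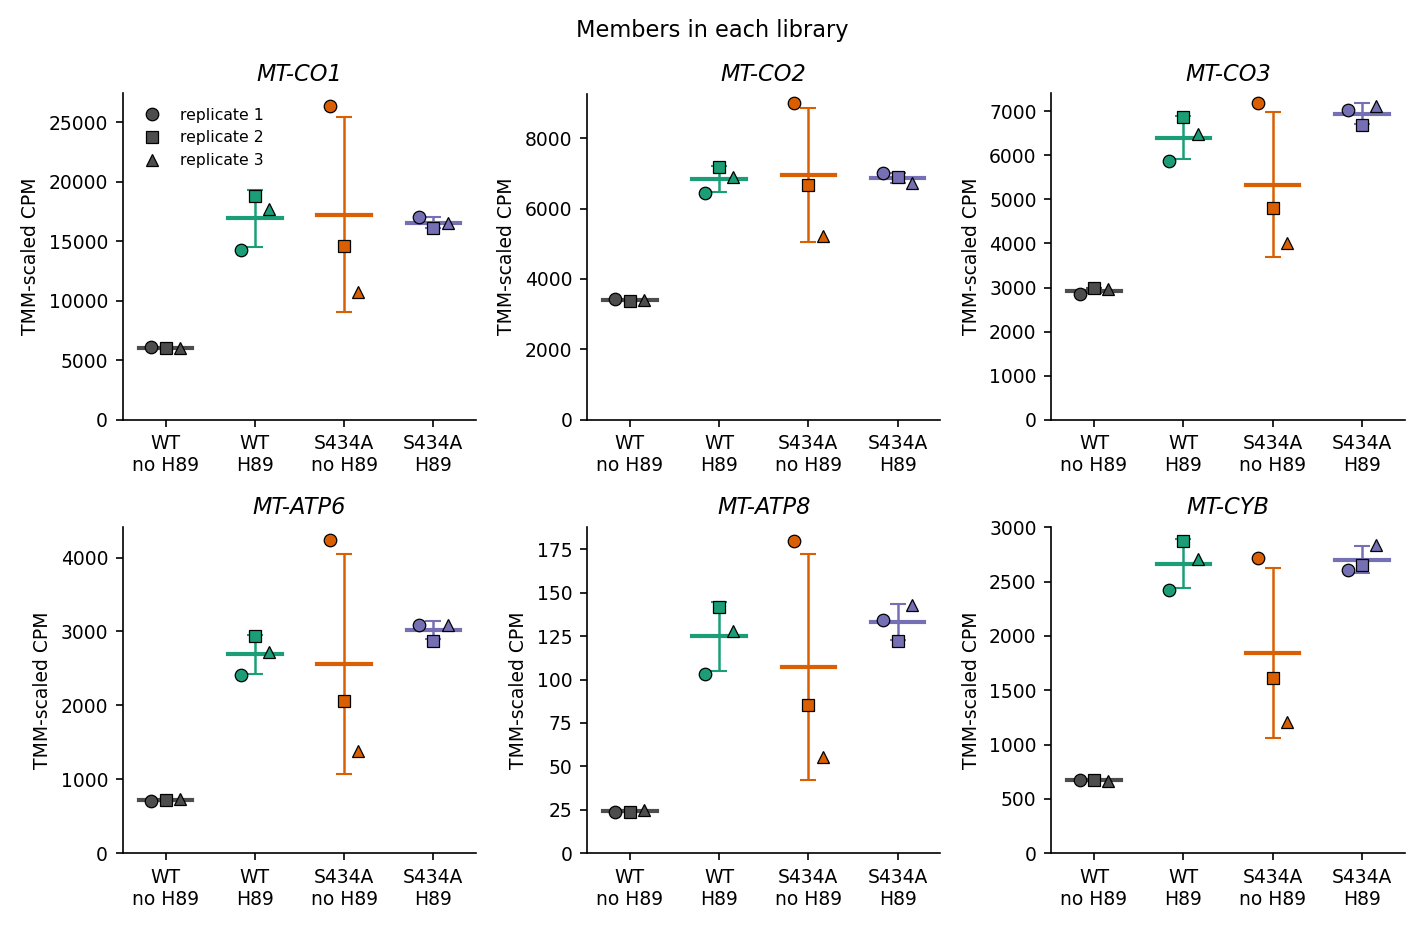
TMM-scaled CPM of each member (1 panel per gene, linear axis from 0) in the 4 groups; points are libraries with 1 symbol per replicate number, lines are group means and bars the SD (n = 3). Untreated WT is tightly grouped (6009 to 6072 CPM for MT-CO1), whereas untreated S434A spreads from 10715 to 26400 CPM.

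The second comparison asked what H89 does in WT cells; it shares the 3 untreated WT libraries with the first. All 6 members rose with H89, by 2.01-fold for MT-CO2 up to 5.14-fold for MT-ATP8, although scaled to the 13 mitochondrially encoded mRNAs MT-CO1, MT-CO2 and MT-CO3 had negative values. No member's groups overlapped, which was so for 47.6% of genes in this direction. In edgeR's quasi-likelihood test 6 of 6 were called over 2-fold, where 22.2% of genes rose as much, and 38.8% of genes rose at any fold. The median log2 change of the members was 1.69 and that of all genes 0.20.

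MT-CO1 was at 14226, 18836 and 17684 CPM in the treated WT libraries, a log2 change of 1.49 (SE 0.26, edgeR adjusted p = 0.000447). MT-CO2 was at 6431, 7183 and 6897 CPM, a change of 1.01 (SE 0.15, edgeR adjusted p = 0.000125). MT-CO3 was at 5875, 6863 and 6478 CPM, a change of 1.13 (SE 0.17, edgeR adjusted p = 0.000144). The complex IV mRNAs thus had the 3 smallest changes of the members, and replicate 1 was the lowest of the treated libraries for each. With RLE size factors, another way of scaling, MT-CO2 and MT-CO3 passed the test but not 2-fold, at log2 changes of 0.86 and 0.98.

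MT-ATP6 was at 2411, 2941 and 2722 CPM with H89, a log2 change of 1.90 (SE 0.31, edgeR adjusted p = 0.000300). MT-ATP8 was at 103, 142 and 128 CPM, a change of 2.36 (SE 0.35, edgeR adjusted p = 0.000126). MT-CYB was at 2424, 2869 and 2705 CPM, a change of 1.99 (SE 0.23, edgeR adjusted p = 2.24e-05). MT-CYB changed by 2.75-fold in the comparison of genotypes and by 3.97-fold here. With the trends removed the members' log2 changes were 1.82 (MT-CO2) to 2.80 (MT-ATP6), where 13.5% of genes rose over 2-fold and 38.4% at any fold.

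The third comparison, of H89 in S434A cells, which shares the untreated S434A libraries with the first, gave no called member in edgeR's quasi-likelihood test, where 15.2% of genes were called higher and 2.35% lower. MT-CO1 was at 17011, 16149 and 16553 CPM in treated S434A, inside the range of the untreated S434A libraries, with a log2 change of -0.06 (SE 0.25, adjusted p = 0.867 in edgeR's quasi-likelihood test). MT-CO2 was at 7000, 6882 and 6712 CPM (-0.02, SE 0.15, edgeR adjusted p = 0.921). MT-CO3 was at 7029, 6684 and 7126 CPM, with a change of 0.38 (SE 0.17, edgeR adjusted p = 0.0779). All 6 members' groups overlapped, and the treated libraries lay close together.

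For the ATP synthase genes the changes in S434A were also within the spread. MT-ATP6 was at 3088, 2874 and 3082 CPM (0.23, SE 0.30, edgeR adjusted p = 0.536). MT-ATP8 was at 134, 122 and 143 CPM (0.31, SE 0.33, edgeR adjusted p = 0.441). MT-CYB was at 2605, 2657 and 2840 CPM, with a change of 0.55 (SE 0.22, edgeR adjusted p = 0.0610). At any fold 29.3% of genes rose in this comparison, 22.7% fell, 33.1% had treated libraries all above the untreated ones, and 23.2% had them all below.

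This result depended on 1 library. Without replicate 1 of untreated S434A, 5 of the 6 members rose with H89 (29.8% of genes did), all below 2-fold, at log2 changes of 0.39 for MT-CO1, 0.65 for MT-CO3, 0.80 for MT-ATP6, 0.92 for MT-ATP8 and 0.94 for MT-CYB. MT-CO2 did not pass, at 0.21 (edgeR adjusted p = 0.0636). With all libraries, 2 members, MT-CO3 and MT-CYB, had an unadjusted p under 0.05 in edgeR, where 58.7% of all genes did. These 2 passed in limma-voom (adjusted p = 0.0464 and 0.0303), whereas 0 members passed in DESeq2, where 8023 genes did. No member was called over 2-fold with or without replicate 1; only the pass at any fold changed.

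With H89 present, the 2 genotypes were compared in the fourth comparison, and no member was called. The log2 differences (S434A minus WT) were -0.03 for MT-CO1 (SE 0.25), 0.01 for MT-CO2 (SE 0.15), 0.12 for MT-CO3 (SE 0.17), 0.16 for MT-ATP6 (SE 0.30), 0.09 for MT-ATP8 (SE 0.33) and 0.02 for MT-CYB (SE 0.22), each with an edgeR adjusted p of 1.0. No member had an unadjusted p under 0.05, and all 6 overlapped between genotypes, where 8.8% of genes were higher and 8.46% lower without overlap. Over all genes edgeR called 0 of 14435 (0.0%), with 589 at an unadjusted p under 0.05, and DESeq2 called 2 at any fold, none of them a member. The sign of 4 of these small values changed with the processing: MT-CO1, MT-CO2, MT-ATP8 and MT-CYB.

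The test of the difference between the H89 effects in the 2 genotypes was passed by all 6 members, which had a smaller change with H89 in S434A than in WT; scaled to the 13 mitochondrially encoded mRNAs, MT-CO2 and MT-CO3 had the opposite sign and none passed. The log2 differences (effect in S434A minus effect in WT) were -1.54 for MT-CO1 (SE 0.36), -1.03 for MT-CO2 (SE 0.21), -0.75 for MT-CO3 (SE 0.24), -1.66 for MT-ATP6 (SE 0.43), -2.05 for MT-ATP8 (SE 0.47) and -1.44 for MT-CYB (SE 0.32). In edgeR's quasi-likelihood test the adjusted p ran from 0.00215 for MT-CO2 to 0.0231 for MT-CO3. Past 2-fold were 5 of the 6, where 12.4% of genes were lower by as much, and 24.0% were lower at any fold. Without replicate 1 of untreated S434A the differences were -1.10, -0.80, -0.47, -1.09, -1.44 and -1.05 in the same order, and all 6 passed. MT-CO3 did not pass without a filter on low counts (edgeR adjusted p = 0.0893) or without some single libraries. The treated genotypes differed little (log2 -0.03 to 0.16). With the same untreated libraries, this test therefore largely restates the first comparison with its sign reversed.

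**Figure D3:**
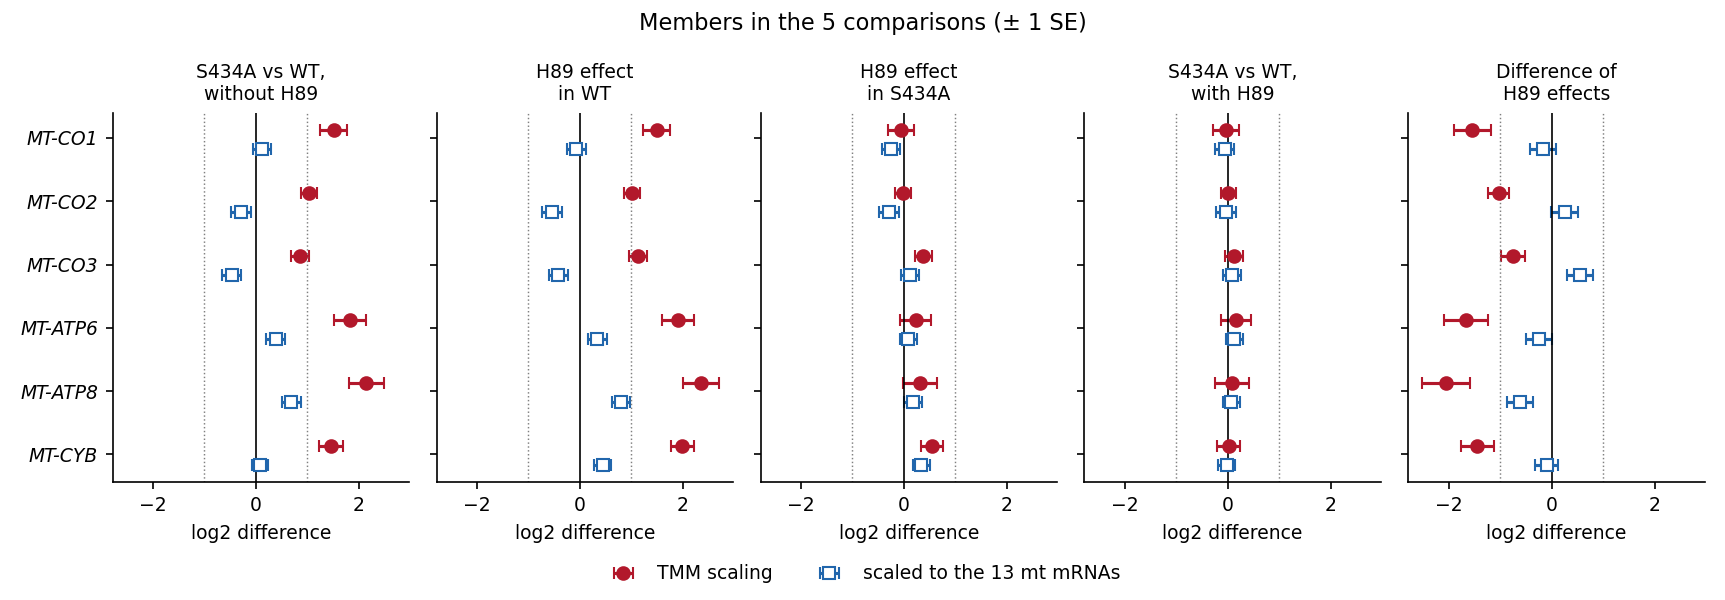
Log2 differences of the 6 members (rows) with 1 SE in the 5 comparisons (panels); filled circles use TMM scaling over all genes, open squares are scaled to the 13 mitochondrially encoded mRNAs, and dotted lines mark 2-fold. Circles lie to the right in the first and second panels (0.86 to 2.14 and 1.01 to 2.36), whereas the squares of MT-CO2 and MT-CO3 lie left of 0 in both and that of MT-CO1 in the second.

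Within the 13 mitochondrially encoded mRNAs the members did not keep their proportions. Together they made up 77.1% to 77.7% of these counts in untreated WT, 67.1% to 68.9% in treated WT, 71.0%, 75.0% and 75.2% in untreated S434A, and 67.3% to 68.1% in treated S434A. The untreated WT libraries lay above all others, and the remainder is the complex I mRNAs. MT-CO2 went from 19.1% ± 0.196 in untreated WT to 13.1% ± 0.869 with H89 (SD, n = 3), and was at 15.7% ± 2.46 in untreated S434A and 12.8% ± 0.418 in treated S434A. MT-CO1 held 33.9% ± 0.258, 32.2% ± 0.939, 36.7% ± 1.03 and 30.9% ± 0.263 in the same order.

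A fit scaled to these 13 mRNAs gave the unequal changes a test; it moved the median of all genes to -1.24 in the comparison of untreated genotypes and to -1.35 for H89 in WT. For untreated S434A against untreated WT, MT-ATP8 was relatively higher (log2 0.69, SE 0.18, edgeR adjusted p = 0.00408) and MT-CO3 relatively lower (-0.47, SE 0.18, edgeR adjusted p = 0.0379). On this scale 0.436% of all genes were higher and 67.6% lower. The other members did not pass, at -0.29 for MT-CO2, 0.12 for MT-CO1, 0.38 for MT-ATP6 and 0.08 for MT-CYB. MT-ATP6 shares its mRNA with MT-ATP8, so the value of MT-ATP8 describes counts assigned to that gene and not a separate transcript.

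For H89 in WT on the same scale, MT-ATP8 (0.80, SE 0.18, edgeR adjusted p = 0.00116) and MT-CYB (0.44, SE 0.16, edgeR adjusted p = 0.0299) were relatively higher, where 0.831% of genes were. MT-CO2 was relatively lower (-0.54, SE 0.19, edgeR adjusted p = 0.0222), where 68.4% of genes were. MT-CO3 (-0.42), MT-ATP6 (0.34) and MT-CO1 (-0.07) did not pass. As MT-ATP6 is on the same mRNA, the value of MT-ATP8 again describes assigned counts and not a separate transcript. None of the 6 passed on this scale in the other 3 comparisons (0.45% of genes were higher and 14.5% lower with H89 in S434A, 0.0% either way between treated genotypes, and 48.1% higher and 0.236% lower in the difference of H89 effects), where MT-ATP8 came nearest in the difference of H89 effects (-0.62, SE 0.25, edgeR adjusted p = 0.0526).

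Ratios of levels per length between members were also taken library by library, as a description with no test. MT-CO3 stood at 3.49 to 3.58 times MT-ATP6, its upstream neighbour, in untreated WT, at 2.03 to 2.12 times in treated WT, at 1.47, 2.02 and 2.51 times in untreated S434A, and at 1.98 to 2.02 times in treated S434A. The untreated WT libraries lay above the other 9. MT-CYB, the most distal member, stood at 0.150 times MT-CO1 in each WT library without H89 and at 0.139 to 0.152 times in untreated S434A, while both H89 groups were higher, at 0.206 to 0.232 times. The ratio of MT-CYB to MT-CO1 thus separated the libraries by H89, also in S434A, where no member passed on the scale of the 13 mRNAs (MT-CYB at 0.34, edgeR adjusted p = 0.161), and that of MT-CO3 to MT-ATP6 separated untreated WT from the rest, although neither of these genes passed on that scale with H89 in WT.

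**Figure D4:**
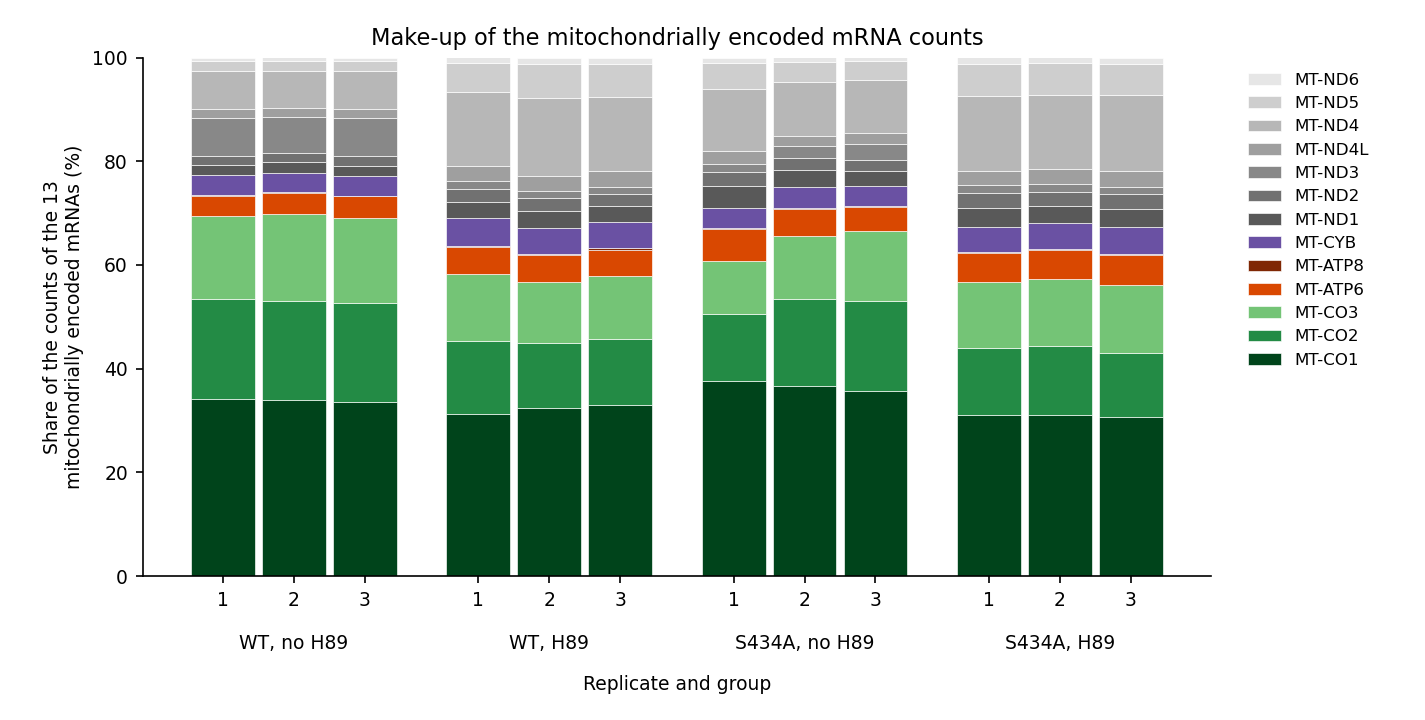
Share of each of the 13 mitochondrially encoded mRNAs in their summed counts (percent, stacked) for the 12 libraries; members are coloured and complex I mRNAs grey. The coloured part is tallest in untreated WT (77.1% to 77.7%) and lowest in the H89 groups.

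Of the 7 complex I mRNAs, 6 rose and 1 fell both in untreated S434A against untreated WT (median 1.87) and with H89 in WT (median 2.34), on TMM scaling. Of all genes, 29.0% rose and 29.3% fell in the former and 38.8% rose and 30.9% fell in the latter. The exception was MT-ND3 (-0.41 in S434A, edgeR adjusted p = 0.000519, and -0.83 with H89 in WT, edgeR adjusted p = 1.75e-06). MT-ND5 was at 2.55 and 3.22 (edgeR adjusted p = 0.000132 and 2.05e-05). With the trends removed, 7 rose and 0 fell in S434A, and 6 rose and 0 fell with H89, where MT-ND3 was at -0.12 (edgeR adjusted p = 0.341).

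The mitochondrial ribosomal RNAs come from the same strand upstream of the members. MT-RNR2 was lower in untreated S434A (log2 -0.70, SE 0.24, edgeR adjusted p = 0.0272), as was MT-RNR1 (-0.30, SE 0.09, edgeR adjusted p = 0.0159). With the trends removed their values were 0.12 and 0.43, so this direction changed with the processing. With H89 in WT, MT-RNR1 rose (0.23, SE 0.09, edgeR adjusted p = 0.0430; 1.01 after trend removal, where both rose), while MT-RNR2 was at -0.20 (edgeR adjusted p = 0.479), and with RLE size factors 0 of the 2 passed. In S434A given H89, MT-RNR1 rose by 0.67 (SE 0.09, edgeR adjusted p = 0.000394). The summed counts of the 13 mRNAs per count of the 2 ribosomal RNAs were 0.654 to 0.670 in untreated WT, 1.96 to 2.48 in treated WT, 2.10 to 2.32 in treated S434A, and 6.76, 2.40 and 1.25 in untreated S434A. Replicate 1 of untreated S434A, the library of its group with the highest level of each member, had the lowest share of ribosomal RNA (1.04% of all counts, against 1.70% and 2.52% in its group). The sources used here do not say how RNA was selected for the libraries, and its part in these values was not tested.

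The nuclear subunits of the same complexes went the other way. In untreated S434A, 0 of the 12 nuclear complex IV genes tested rose and 11 fell (median log2 -1.51), where 29.3% of all genes fell. COX4I1, which encodes a regulatory subunit in contact with the members' products, was at -1.12 (SE 0.06, edgeR adjusted p = 3.99e-07), COX7C at -1.69 (SE 0.07, edgeR adjusted p = 3.84e-07) and COX6A1 at -1.56 (SE 0.09, edgeR adjusted p = 4.23e-07), the last 2 at -0.51 and -0.48 with the trends removed. With H89 in WT all 12 fell (median -2.04), where 30.9% of genes fell, and with H89 in S434A 11 fell (median -0.51), where 22.7% did. After trend removal 2 rose and 10 fell in S434A (median -0.91), where 28.8% of genes fell, and 10 fell with H89 in WT (median -1.48), where 34.9% did.

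Of 18 nuclear ATP synthase genes, 0 rose and 16 fell in untreated S434A (median -1.08), where 29.3% of all genes fell. In WT given H89, 0 rose and 17 fell (median -1.36, 30.9% of genes), and in S434A given H89, 1 rose and 13 fell (median -0.36, 22.7% of genes). ATP5MF, a subunit of the membrane part that also holds MT-ATP6 and MT-ATP8, was at -1.26 (SE 0.06, edgeR adjusted p = 3.84e-07) in S434A and at -1.72 (SE 0.06, edgeR adjusted p = 4.41e-09) with H89 in WT. ATP5F1B, a catalytic subunit, was at -1.25 with H89 in WT (SE 0.05, edgeR adjusted p = 7.64e-09; -0.67 with the trends removed). After trend removal 1 rose and 14 fell in S434A (median -0.56, 28.8% of genes), and 16 fell with H89 in WT (median -1.17, 34.9% of genes).

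Of 9 nuclear complex III genes, 0 rose and 8 fell in untreated S434A (median -0.72), 9 fell with H89 in WT (median -1.30) and 7 fell with H89 in S434A (median -0.46), where 29.3%, 30.9% and 22.7% of all genes fell. UQCRH, the hinge protein of the complex, was at -1.88 (SE 0.10, edgeR adjusted p = 3.99e-07) in S434A and at -2.37 (SE 0.10, edgeR adjusted p = 1.02e-08; -1.65 with the trends removed) with H89 in WT. Trend removal left 1 that rose and 7 that fell in S434A (median -0.81), where 29.7% of genes rose and 28.8% fell. It left 8 that fell with H89 in WT (median -1.08), where 34.9% of genes fell. In treated S434A against treated WT, 0 genes of the 3 nuclear lists passed in edgeR, with medians of 0.10, 0.06 and 0.06.

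**Figure D5:**
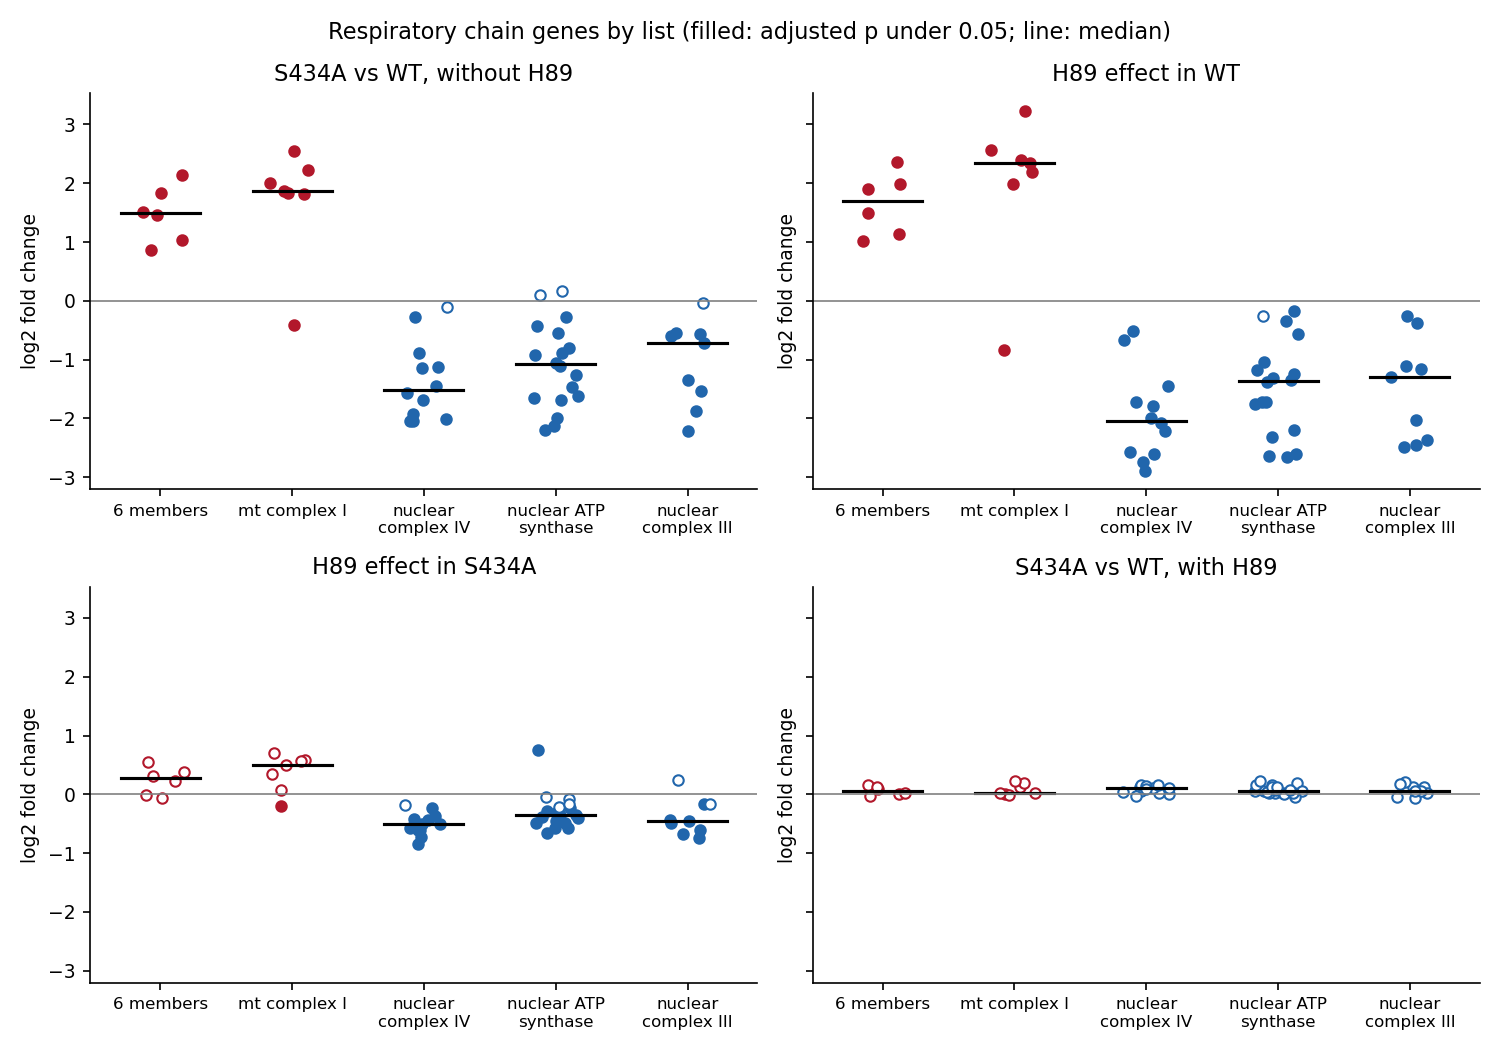
Log2 fold changes (TMM scaling) of single genes in 5 lists for 4 comparisons: the 6 members and the 7 mitochondrially encoded complex I mRNAs in red, nuclear genes of complex IV, ATP synthase and complex III in blue; filled points passed an adjusted p of 0.05 and black lines are medians. Mitochondrially encoded genes lie above 0 except MT-ND3, and nuclear genes below 0 except ATP5F1D (0.09) and ATP5MC2 (0.16) in S434A, in the upper panels (medians 1.49 and -1.51 for the members and nuclear complex IV in S434A); scaled to the 13 mitochondrially encoded mRNAs, 2 members lie below 0 there and 3 with H89 in WT.

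Of 8 genes for transcription of mitochondrial DNA, 1 rose and 5 fell in untreated S434A (median -1.02), where 29.0% of all genes rose and 29.3% fell. In WT given H89, 1 rose and 2 fell (median -0.06), where 38.8% of genes rose and 30.9% fell, and in S434A given H89, 3 rose and 2 fell (median 0.83), where 29.3% rose and 22.7% fell. With the trends removed, 1 rose and 4 fell in untreated S434A (median -0.38), where 29.7% of genes rose and 28.8% fell. The counts were 3 and 5 with H89 in WT (median -0.19), where 38.4% of genes rose and 34.9% fell. They were 2 and 2 with H89 in S434A (median 0.28), where 20.8% of genes rose and 23.4% fell. POLRMT, the mitochondrial RNA polymerase, was at 0.83 in S434A (SE 0.14, edgeR adjusted p = 0.000379) and at 0.55 with H89 in WT (SE 0.14, edgeR adjusted p = 0.00459), but at -0.05 and -0.13 with the trends removed. MTERF4, which acts in mitochondrial ribosome assembly, was at -0.89 and -1.32 in the same comparisons, and TFAM, which packages mitochondrial DNA, was at 1.32 with H89 in S434A (SE 0.37, edgeR adjusted p = 0.0141; 0.32 with the trends removed).

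Of 17 genes for processing and stability of mitochondrial RNA, 2 rose and 4 fell in untreated S434A, where 29.0% of all genes rose and 29.3% fell. In WT given H89, 4 rose and 3 fell (2 and 6 with RLE size factors), where 38.8% of genes rose and 30.9% fell. On TMM scaling these shares of the list lie below those of all genes. Trend removal turned the balance with H89, to 3 that rose and 6 that fell in WT (38.4% and 34.9% of genes) and 5 that rose and 6 that fell in S434A (20.8% and 23.4% of genes). SLIRP, which with LRPPRC binds and stabilises mitochondrial mRNAs, was at -1.89 in S434A (SE 0.11, edgeR adjusted p = 5.23e-07; -0.82 with the trends removed) and at -2.14 with H89 in WT (SE 0.11, edgeR adjusted p = 4.02e-08). In S434A given H89, 7 rose and 4 fell (29.3% and 22.7% of genes). Among those that rose was MTPAP, the mitochondrial poly(A) polymerase, at 0.84 (SE 0.16, edgeR adjusted p = 0.00208; -0.27 with the trends removed).

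Of 27 genes for complex assembly and translation activation, 0 rose and 21 fell in untreated S434A (median -0.69), where 29.3% of all genes fell. In WT given H89, 2 rose and 21 fell (median -1.07), where 38.8% of genes rose and 30.9% fell. TACO1, which activates translation of MT-CO1, was at -0.97 (SE 0.06, edgeR adjusted p = 5.67e-07) and -1.79 (SE 0.06, edgeR adjusted p = 4.41e-09) in these comparisons. COX17, a copper chaperone of complex IV, was at -1.38 in S434A (SE 0.09, edgeR adjusted p = 5.80e-07; -0.58 with the trends removed). Trend removal left 1 that rose and 18 that fell in S434A, where 29.7% of genes rose and 28.8% fell.

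The nuclear genome holds near-identical copies of parts of the members, so that a read can match both. The closest were MTCO1P12 (98.7% identical over its aligned bases), MTCO2P12 (98.2%), MTCO3P12 (98.2%), MTATP6P1 (98.5%), MTATP8P1 (97.6%) and MTCYBP18 (92.4%). All copies of MT-CO3 together held 2.19% to 3.22% as many counts as MT-CO3, on average 2.24% in untreated WT and 3.14% in treated WT. For each other member the copies held at most 0.0875%. The counts assigned to the copies were therefore small beside the members, and the sources used here do not say how reads with several matches were treated.

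Across the 12 libraries, log2 CPM of any 2 members had a Pearson r of 0.954 (MT-CO2 with MT-CO3 or MT-CYB) to 0.998 (MT-ATP6 with MT-ATP8), as a description only, since the libraries fall into 4 groups and share their depth, and MT-ATP6 and MT-ATP8 share bases. Outside the members, MT-ND2 (r = 0.997), MT-ND1 (0.996) and MT-ND6 (0.995) came closest to the members' mean log2 CPM on the mitochondrial chromosome. MT-ND6 is read from the opposite strand, and whether the counting used strand is not stated. In the nucleus the closest were SIK3, CCDC120, ZNF213 and GM2A (0.987 each) and ZNF517 (0.986), of 11202 genes considered, where 14.1% had an r above 0.9.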

How the data were processed

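RNA was measured in 12 HepG2 libraries in 4 groups of 3. The deposited table holds, for each gene, a count of read pairs, which the authors made with featureCounts 2.0.1 over exons of an hg19 annotation, per the file headers. Per the submitters' processing notes, Bowtie 0.12.2 and build hg19 were used. The sources used here do not give the strand, library kit, RNA selection, multimapping rules or mitochondrial reference sequence.

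Counts were tested with edgeR 4.0.16 in R 4.3.3: TMM factors, filterByExpr by group (minimum count 10), 1 fit over all 12 libraries without a block, robust quasi-likelihood F tests, and Benjamini-Hochberg adjustment over the 14435 genes tested. A call needs a fold over 2 and an adjusted p under 0.05; "rose", "fell" and "passed" need only the adjusted p. SE is the size of a log2 change over the square root of F. CPM is TMM-scaled, and CPM per kilobase uses the table's gene length. Total counts were 17562754 to 37187794. Alternatives used DESeq2 1.42.0, limma 3.58.1, other scalings and filters, a replicate block, trend removal by splines, and single libraries left out. The splines had 5 degrees of freedom each for GC content and length, with the interaction of the 2. They were fitted over the 14280 genes with a GC content. The main edgeR fit was also run on simulated counts. These held no trend with GC content or length, so that run cannot show how such trends act on the results. The members, the gene lists, the named genes (up to 3 per list by smallest p) and the alternatives were chosen with earlier results of these data known.

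The p-values use a spread shared by the 4 groups, whose own spreads were unlike. Chi-square per degree of freedom was 1.62 to 2.03 in untreated WT and 32.5 to 156 in untreated S434A. The p-values refer to these libraries and cannot show how far other cultures would differ. Same-numbered libraries had correlations of deviations from -0.153 to 0.309, so numbers were not treated as pairs. The marker gene PECAM1 was not analysed here.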

Additional observations from a re-analysis of the deposited data

Results flagged for a closer look

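The effect of H89 differed between S434A and WT cells for each of the 6 members by the test of the difference itself (edgeR's quasi-likelihood test, adjusted p from 0.00215 to 0.0231), with log2 differences of -1.54 for MT-CO1, -1.03 for MT-CO2, -0.75 for MT-CO3, -1.66 for MT-ATP6, -2.05 for MT-ATP8 and -1.44 for MT-CYB. In WT the changes with H89 were 1.49, 1.01, 1.13, 1.90, 2.36 and 1.99 in the same order, and in S434A they were -0.06, -0.02, 0.38, 0.23, 0.31 and 0.55. MT-CO3 did not pass without a filter on low counts (adjusted p = 0.0893) or without any of 3 single libraries (0.0511, 0.0625 and 0.0587), and no member passed when scaled to the 13 mitochondrially encoded mRNAs, all in edgeR. Of all genes tested, 24.0% were lower by this test and 24.0% higher. The treated genotypes differed little (log2 -0.03 to 0.16). With the same untreated libraries, the test therefore largely restates S434A against WT without H89, with its sign reversed. The spread of the members in S434A without H89, where replicate 1 was the highest library for all 6, moves with this result, and its part in it was not tested beyond the values without that library.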

How the results depend on the processing

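The direction of all 6 members in S434A against WT without H89 and in the H89 effect in WT was the same in every alternative but the scaling to the 13 mitochondrially encoded mRNAs. That scaling is centred, by construction, on mRNAs of which the members are the larger share. It gave 0 called members in S434A against WT without H89, 0 in the H89 effect in WT and 0 in the difference of H89 effects, with reversed values of -0.29 (MT-CO2) and -0.47 (MT-CO3) in the first, -0.07 (MT-CO1), -0.54 (MT-CO2) and -0.42 (MT-CO3) in the second, and 0.25 (MT-CO2) and 0.55 (MT-CO3) in the third. With each library left out in turn, the members called numbered 4 to 6 in S434A against WT without H89, 4 to 6 in the H89 effect in WT, 4 to 5 in the difference of effects, and 0 to 0 in the other 2 comparisons. RLE size factors, which lowered the median of all genes in the H89 effect in WT from 0.20 to 0.05, left 4 called there, as did DESeq2, no filter, and fitting only the groups compared.

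Small values changed sign as follows; the cause was not tested. For H89 in S434A, MT-CO1 and MT-CO2 were at 0.05 and 0.02 with limma-voom, with and without a weight per group, and ran from -0.31 to 0.39 and from -0.19 to 0.21 with a library left out (highest without untreated S434A replicate 1), and MT-ATP6 ran from -0.06 to 0.80 (-0.03 without untreated S434A replicate 2). For S434A against WT with H89, scaling to the 13 mRNAs gave -0.03 (MT-CO2) and -0.02 (MT-CYB), trend removal gave -0.07 and -0.04 for the same genes, trend removal with the replicate block gave -0.07, -0.04 and -0.01 (MT-ATP8), and leaving out a library gave -0.14 to 0.06 for MT-CO1, -0.03 to 0.04 for MT-CO2, -0.04 to 0.08 for MT-CYB and a lowest value of -0.02 for MT-ATP8.

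In the difference of H89 effects MT-CO3 did not pass without a filter (adjusted p = 0.0893), without WT replicate 1 (no H89; 0.0511), without WT replicate 2 (H89; 0.0625) or without S434A replicate 2 (H89; 0.0587), in edgeR. The replicate block (the number in the labels as a term) called 5, 6, 0, 0 and 5 members in the order of the comparisons, the same counts as without it. Depth limits MT-ATP8 most, at 551 counts in its lowest library.
The counts of the gene lists with trends removed, with RLE size factors and without replicate 1 of untreated S434A were alternatives chosen after seeing the data.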
